A study of Mus musculus with 8 samples.

Results

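The comparison described here sets basal cells of the mouse mammary gland against luminal cells, both sorted from female CD1 mice. Its members were the 2 libraries labelled CD29 high (called basal) and the 2 labelled CD29 low (called luminal), 4 of the 8 libraries of the series, over all genes. Of 49671 genes in the deposited table, 16900 had enough reads to be tested. The labels give the mice of these 4 libraries only by strain, CD1, and the protocol gives all experimental females as of mixed genetic backgrounds. The sources used here give neither ages nor the number of animals per library. The sort removed CD45, CD31 and CD140a positive cells, kept CD24 positive cells, and took 40000 luminal or 5000 basal cells. The gate of the second basal library is spelled CD29hign in its label and was read as CD29 high. The other 4 libraries came from GFP positive luminal and basal cells of K8rtTA/TetOCre/Rosa26-DNp63-IRES-GFP mice, in which the keratin 8 promoter drives rtTA. They entered only the estimate of spread and 1 test of whether the gate difference depended on the mouse.

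The mammary duct is a bilayer. Inner luminal cells line the lumen, carry the steroid hormone receptors or make milk, and are joined by tight junctions. Outer basal cells lie on the basement membrane, express p63 and keratins 5 and 14, and contract in response to oxytocin to eject milk. The layers signal to each other through secreted ligands, among them epidermal growth factor family members, Wnt proteins and Notch ligands.

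Values are reads scaled by the authors to 20000000 per library. Recovered reads numbered 5640602 and 5398924 in the luminal and 4368739 and 5009861 in the basal libraries, so that 1 read was worth a value of 3.546 to 4.578. Where values are given in order, luminal library 1 and 2 come first and basal library 1 and 2 second. A difference is basal minus luminal on the log2(value + 8) scale, with its standard error (SE), and a gene was called at an adjusted p under 0.05 in limma's moderated test. No label states that the 2 libraries of a gate are from different animals, so p-values measure only the spread between libraries, which may be technical. That spread was pooled over the 4 groups of all 8 libraries. An SE can therefore be larger or smaller than the CD1 libraries alone would give. The correlation of log2 values between replicates was 0.965 for luminal and 0.974 for basal libraries. In bulk libraries, fewer cells of a type and less RNA per cell cannot be told apart. Every luminal library came from 40000 cells and every basal one from 5000, so gate and cell number cannot be told apart in any result below.

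The sort genes and the lineage markers were read first. Itgb1, which encodes CD29, had values of 9911 and 8621 in the luminal and 15456 and 14771 in the basal libraries (difference 0.69, SE 0.11, adjusted p = 0.00126). Cd24a, the gene of CD24, had 19842 and 18564 against 6446 and 7362 (-1.49, SE 0.14, adjusted p = 5.73e-05). Ptprc, the gene of CD45, had 47 and 75 against 165 and 96 and was not called (adjusted p = 0.2). Pdgfra, the gene of CD140a, had 196 and 1049 against 344 and 1018 and was not called (adjusted p = 0.725). Pecam1, the gene of CD31, had 419 and 571 against 8163 and 7669 (3.98, SE 0.21, adjusted p = 3.82e-06) in spite of the CD31 gate. The lineage markers matched the labels. Krt5 had 110 and 97 against 10901 and 7502, Krt14 401 and 230 against 36528 and 30261, and Acta2 646 and 438 against 59166 and 51343. Krt8 had 42397 and 45769 against 8264 and 7206, and Krt18 41482 and 43028 against 7339 and 5897.

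Transcripts of other cell types were present, and several of their lists were unequal between the gates, which touches results below. Of 20 endothelial genes, 19 were higher in basal libraries and 1 was not called, with a median difference of 4.81. Their summed value was 5697 and 4740 in the luminal and 86995 and 84218 in the basal libraries. Kdr, the main receptor of vascular endothelial growth factor, had 171 and 245 against 11638 and 12688, and Cdh5, endothelial cadherin, had 348 and 323 against 15016 and 14684. Vwf, von Willebrand factor, did not follow them, with 2837 and 1442 against 3104 and 943 (adjusted p = 0.718, not called). Of 14 pericyte genes, 12 were higher and 1 was lower (median 3.71), and the sum was 12465 and 11416 against 24665 and 30824. Rgs5, a regulator of G protein signalling typical of pericytes, had 369 and 275 against 8776 and 10073.

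Of 12 adipocyte genes, 11 were higher (median 3.68), with sums of 2437 and 2835 against 62847 and 73503. Most of the basal sum was Cd36, a fatty acid transporter that capillary endothelium also expresses (635 and 604 against 39115 and 43235), and Fabp4, a fatty acid binding protein found in both cell types (561 and 575 against 18903 and 21865). Adipoq, the adipocyte hormone adiponectin, had 4 and 8 against 37 and 160 (2.65, SE 0.62, adjusted p = 0.00821, from 1.68 to 3.62 without either basal library). Of 16 fibroblast genes, 4 were higher (a share near the 24.2% of all genes), 1 was lower and 11 were not called, with sums of 10662 and 54696 against 71690 and 93686. The second luminal library stood apart here: Col1a1, a chain of type I collagen, had 692 in luminal library 1, 11506 in luminal library 2, and 4565 and 11302 in the basal libraries. Without that library 9 of the 16 were higher, and Col1a1 was called (3.36, adjusted p = 0.00101). Of 11 glia and neuron genes, 10 were higher and 1 was lower (sums 4085 and 4139 against 5981 and 6030), with the neuronal gene Th at 0 in all 4 libraries. Of 11 immune genes, 2 were higher (18.2%, below the 24.2% of all genes) and 9 were not called (sums 1778 and 2083 against 3234 and 2846), and the B cell gene Ms4a1 was at 0. Red cell genes summed to 137 and 250 against 258 and 240, with Hba-a2 at 0. The part of these transcripts in the results below was not tested.

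**Figure D1:**
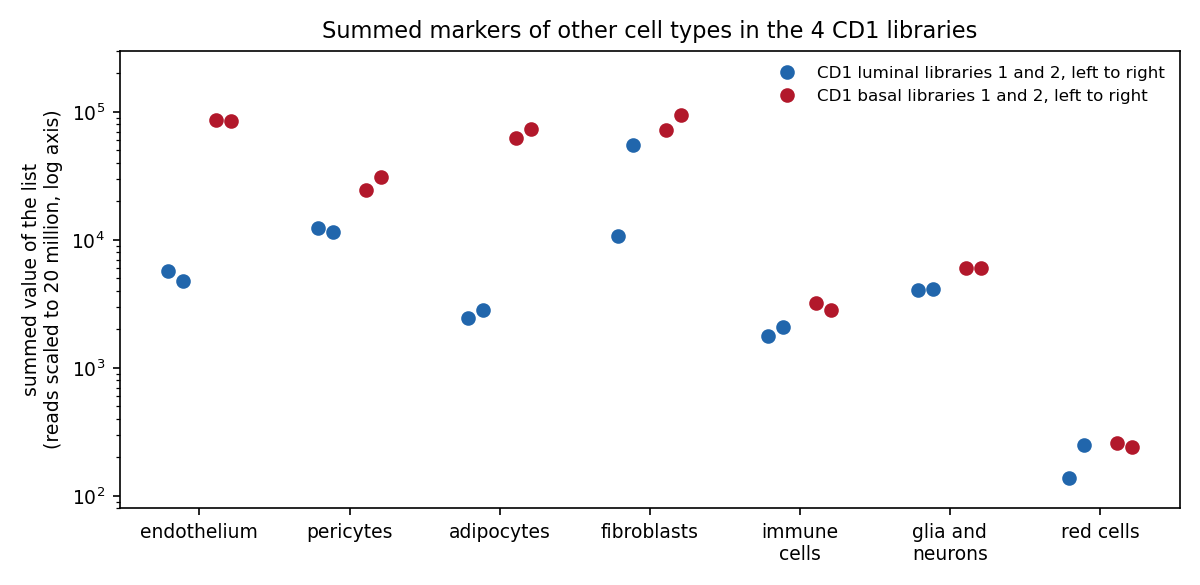
Summed values (scaled reads, log axis) of marker lists for 7 other cell types, with a point for each CD1 library. The endothelial and adipocyte sums of the basal libraries lie over 10 times above those of the luminal libraries, and the fibroblast sum of luminal library 2 (54696) lies near the basal ones.

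Across the transcriptome 7494 of 16900 genes (44.3%) were called, 4098 higher (24.2%) and 3396 lower (20.1%) in basal libraries. The shares of 24.2% and 20.1% are the background for each list count given here. The lists were chosen with earlier results of these data known, so their counts describe the listed genes only and test no layer trait. The sizes were unequal. The median difference was 1.85 among higher genes and -1.03 among lower genes, while the median over all genes tested was -0.01. Of the genes called, 5003 differed at least 2-fold, 3254 of them higher and 1749 lower. At 8-fold or more there were 898 higher and 81 lower genes, and at 16-fold or more 415 and 1. The asymmetry was also seen among abundant genes. Of 1300 higher genes with a basal mean of at least 1000, 225 reached 16-fold. Of 1633 lower genes with a luminal mean of at least 1000, none did, and the largest difference was that of Ltf, lactoferrin, at -3.80 (34702 and 24531 against 3370 and 1322, from -4.44 to -3.15 without either basal library). Luminal transcripts were measurable in the basal libraries: Krt8 had 17.4% of its luminal mean there, Krt19 13.5% and Elf5 9.17%.

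**Figure D2:**
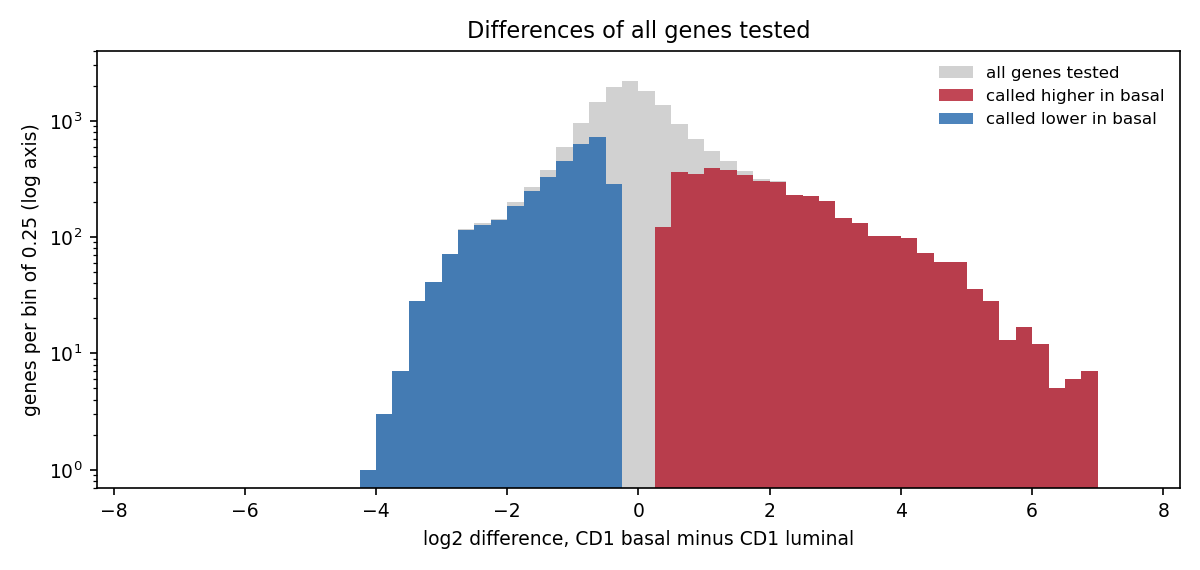
Number of genes (log axis) by log2 difference, CD1 basal minus CD1 luminal, in bins of 0.25, for all 16900 genes tested and for the genes called higher or lower. The higher side reaches 6.93 (Irx4 and Myh11), and the lower side ends at -4.14 (Ceacam10).

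Keratins divided between the gates: of 16 tested, 6 were higher (37.5%), 6 lower (37.5%) and 4 not called. All genes had 24.2% higher and 20.1% lower. Krt17, a keratin of basal and appendage epithelium, had 472 and 130 against 19640 and 14260 (6.01, SE 0.50, adjusted p = 3.38e-05), and the difference lay between 5.12 and 6.92 when either luminal library was left out. Krt23 had 15 and 8 against 275 and 428 (4.19, SE 0.35, adjusted p = 3.6e-05). On the other side stood Krt19 with 27331 and 27502 against 4015 and 3474 (-2.89, SE 0.12, adjusted p = 9.15e-07) and Krt7 with 8383 and 8273 against 1644 and 1150 (-2.61, SE 0.17, adjusted p = 1.11e-05), both simple epithelial keratins. Krt6a, which is often placed with the keratins of stratified epithelium, was on the luminal side, with 671 and 1445 against 225 and 164 (-2.33, SE 0.46, adjusted p = 0.00338).

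Most listed transcription factors followed the layer they were listed for. Of 20 factors listed for basal cells, 16 were higher, none was lower and 4 were not called (median 2.95). Irx4, an Iroquois homeobox factor, had 11 and 4 in the luminal and 2175 and 1537 in the basal libraries (6.93, SE 0.32, adjusted p = 1.84e-06). Trp63, which encodes p63, had 61 and 45 against 5457 and 7079 (6.67, SE 0.18, adjusted p = 2.17e-07). Id4, an inhibitor of basic helix-loop-helix factors, had 32 and 12 against 1910 and 2204 (6.18, SE 0.35, adjusted p = 5.2e-06). Libraries of the gates were far apart for all 3. Nfib, Srf and Foxc1 were among the factors not called, with differences of 0.17, 0.28 and 0.03. Without luminal library 2 Srf was called (0.67, adjusted p = 0.0163).

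Of 31 factors listed for luminal cells, 20 were lower, 5 higher (3 without basal library 2) and 6 not called (median -0.99). Foxi1, a forkhead factor of ionocytes, had 235 and 308 against 10 and 12 (-3.89, SE 0.31, adjusted p = 2.89e-05). Elf5, a factor of alveolar and progenitor cells, had 3415 and 3731 against 358 and 292 (-3.45, SE 0.23, adjusted p = 1.01e-05). Ehf, another Ets factor of epithelium, had 3745 and 3564 against 472 and 264 (-3.36, SE 0.47, adjusted p = 0.00056). Factors that are often used to mark luminal cells differed in size. Foxa1, a pioneer factor of the estrogen receptor, had 10446 and 9280 against 1488 and 1030 (-3.00, SE 0.22, adjusted p = 1.78e-05). Sox9, listed here with luminal factors, had 13212 and 12192 against 5325 and 4807 (-1.34, SE 0.15, adjusted p = 0.000179). Gata3, a master regulator of luminal fate, had 3284 and 3446 against 2070 and 2404 (-0.60, SE 0.17, adjusted p = 0.0193), and it was not called without basal library 1 (-0.47, adjusted p = 0.12) or without luminal library 2 (-0.56, adjusted p = 0.0599). Nr2f2, a nuclear receptor also expressed in vessels and stroma, was among the 5 that went the other way, with 302 and 271 against 1282 and 1713 (2.33, SE 0.22, adjusted p = 5.91e-05).

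**Figure D3:**
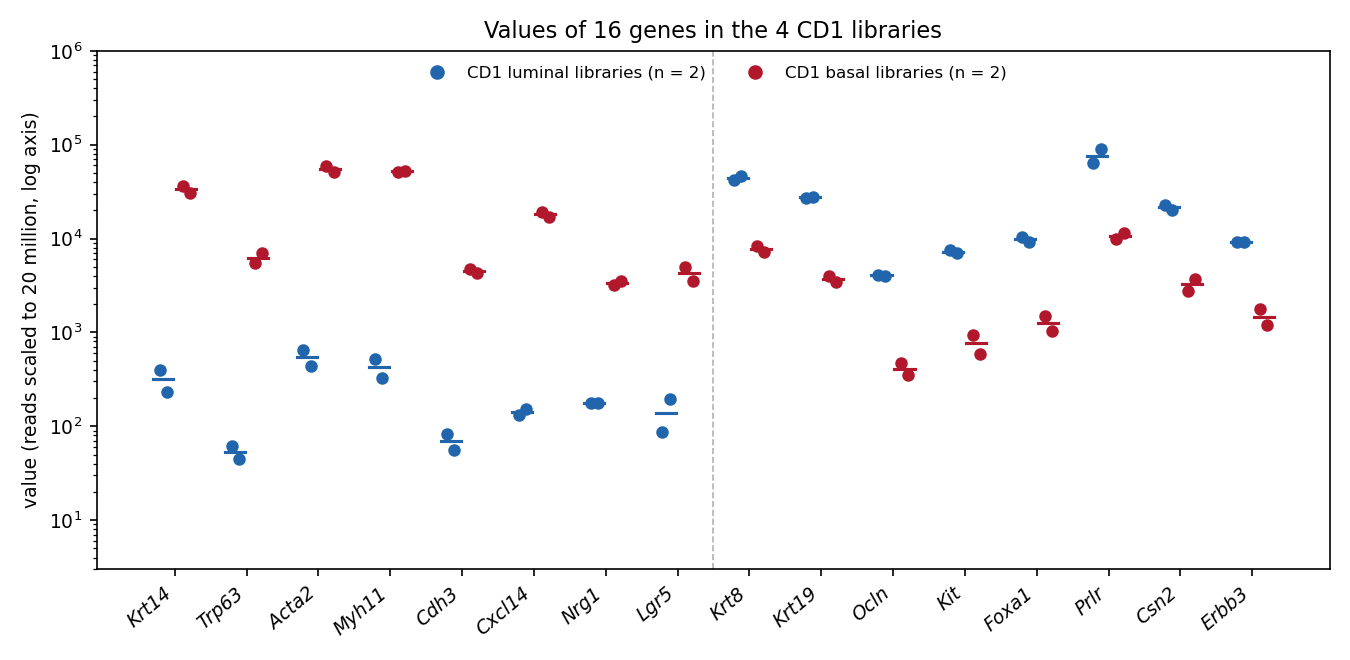
Values (scaled reads, log axis) of 16 genes in the 2 luminal and 2 basal CD1 libraries, as points with bars at the group means, with genes higher in basal left of the dashed line. The 16 were picked among called genes, and 7493 of all 7494 called genes do not overlap between the CD1 groups. Non-overlap of the 16 therefore follows from their choice. The gap on the right of the line is narrower than on the left.

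The contractile apparatus was the list with the most complete shift. All 21 tested members were higher in basal libraries, against 24.2% of all genes, with differences from 0.72 to 6.93 (median 4.21). Myh11, the smooth muscle myosin heavy chain, had 525 and 326 against 51031 and 52876 (6.93, SE 0.21, adjusted p = 3.41e-07). Cnn1, calponin, had 79 and 67 against 9614 and 8404 (6.79, SE 0.21, adjusted p = 3.41e-07). Mylk, the kinase that switches on smooth muscle myosin, had 231 and 167 against 19173 and 21961 (6.64, SE 0.20, adjusted p = 3.41e-07), and Myl9, its light chain substrate, had 86 and 130 against 5100 and 5574 (5.54, SE 0.20, adjusted p = 6.47e-07). Proteins that every adherent cell uses sat at the low end. Vcl, the adhesion protein vinculin, had 4454 and 4846 against 7582 and 7869 (0.72, SE 0.14, adjusted p = 0.00285). Tagln, a classical smooth muscle gene, was low in all libraries (15 and 15 against 179 and 184), and 67.9% of its exon bases lie inside exons of Pcsk7 or Gm48529, so that its reads may be shared and its level is uncertain. Pericytes also express many of these genes, and the pericyte sum was higher in the same libraries (12465 and 11416 against 24665 and 30824).

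Serum response factor activates smooth muscle genes through a motif known as the CArG box, so the promoters of the list were searched for it. Windows of 250 bases before to 50 after the gene start (RefSeq, GRCm38.p6) were found for 17 of the 21 members. A CArG box stood on either strand in 2 of the 17 windows (11.8%, Myl9 and Vcl), against 1.55% of the 11067 tested genes with a window. Strict matches also stood in 2 of 10 windows of the basal transcription factors (20%, Egr2 and Srf), 1 of 18 of the tight junction genes (5.56%, Cldn12) and 1 of 22 of the luminal factors (4.55%, Cited1). Allowing 1 other letter, 4 of 17 held it (23.5%, Acta2, Myl9, Synm and Vcl), against 10.5%. The same relaxed search matched 5 of 18 windows of tight junction genes (27.8%: Cldn4, Cldn12, Ocln, Cgn and Pard3). Every strict match is also a relaxed match, and a match describes letters and not binding. The 3 stretches below are shown because their genes span the range of differences in the list, 6.66 for Acta2, 5.54 for Myl9 and 0.72 for Vcl. They are written on the strand of the gene, with matches to the box, or to the box with 1 other letter, in capitals. Acta2 is on chromosome 19 (34255358 to 34255497, minus strand), Myl9 on chromosome 2 (156775263 to 156775414, plus strand) and Vcl on chromosome 14 (20929148 to 20929220, plus strand). The capitals lie in sequence upstream of the gene start in all 3.
Acta2: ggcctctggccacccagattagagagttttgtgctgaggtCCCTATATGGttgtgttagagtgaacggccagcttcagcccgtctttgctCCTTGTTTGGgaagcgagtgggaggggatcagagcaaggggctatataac
Myl9: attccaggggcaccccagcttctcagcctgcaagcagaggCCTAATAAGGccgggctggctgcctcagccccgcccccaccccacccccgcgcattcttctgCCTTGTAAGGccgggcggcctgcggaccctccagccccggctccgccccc
Vcl: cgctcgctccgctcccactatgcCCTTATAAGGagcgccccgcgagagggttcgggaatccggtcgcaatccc
Relative to the annotated gene start, the first match begins at position -84 in Acta2, -161 in Myl9 and -227 in Vcl.

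Genes for calcium handling and milk ejection were mixed: 16 of 25 were higher, 5 lower (3 without basal library 2) and 4 not called (median 1.00). Oxtr, the oxytocin receptor, had 1398 and 404 against 22057 and 21794 (4.84, SE 0.44, adjusted p = 5.37e-05), and the difference was 5.73 without luminal library 1 and 3.96 without luminal library 2. Kcnmb1, the smooth muscle subunit of the large conductance potassium channel, had 8 and 8 against 747 and 935 (5.72, SE 0.28, adjusted p = 2.21e-06). Cacna1c, the pore of the L-type calcium channel, had 71 and 126 against 2138 and 2659 (4.53, SE 0.30, adjusted p = 1.14e-05). Both channel genes were low in luminal libraries. On the luminal side were Itpr3, an inositol trisphosphate receptor of secretory epithelium, with 4730 and 5776 against 1859 and 1889 (-1.49, SE 0.14, adjusted p = 6.74e-05), and P2rx4, a channel gated by ATP, with 1986 and 2620 against 834 and 999 (-1.33, SE 0.18, adjusted p = 0.000502). Trpc6, a calcium-permeable channel, was lower too, at 745 and 1112 against 257 and 328 (-1.64, SE 0.36, adjusted p = 0.00652).

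Basement membrane genes were higher in basal libraries for 24 of 29 members, lower for 1 and not called for 4 (median 2.33). Col17a1, the hemidesmosome collagen that epithelial cells make, had 398 and 464 against 11171 and 10895 (4.64, SE 0.13, adjusted p = 2.17e-07). Col4a2, a chain of the type IV collagen network, had 401 and 753 against 18454 and 20935 (5.13, SE 0.26, adjusted p = 3.04e-06), and Hspg2, perlecan, had 2454 and 2675 against 38176 and 33858 (3.79, SE 0.15, adjusted p = 9.36e-07). Col7a1, the anchoring fibril collagen, had 93 and 178 against 4730 and 5769 (5.24, SE 0.34, adjusted p = 9.92e-06). Endothelium and pericytes also lay down collagen IV and perlecan, and their marker sums were higher in these libraries. Lama5, a laminin chain common to epithelia, had 8549 and 12399 against 11954 and 9258 and was not called. Npnt, nephronectin, was the only member lower in basal (607 and 1116 against 220 and 264, -1.75, SE 0.46, adjusted p = 0.0139), and it lost the call without basal library 1 (-1.60, adjusted p = 0.0776) or luminal library 2 (-1.31, adjusted p = 0.0762).

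Integrins and their adaptors showed 17 members higher, 4 lower and 6 not called of 27 (median 0.89). The 4 lower became 2 without either basal library or without luminal library 2. Itga6, the alpha chain of the hemidesmosome integrin, had 12886 and 14177 against 30833 and 28967 (1.13, SE 0.11, adjusted p = 8.14e-05), while Itgb4, its beta chain, had 3621 and 3598 against 4034 and 3194 and was not called. Itga1, a collagen receptor subunit, had 57 and 49 against 4112 and 4220 (6.09, SE 0.31, adjusted p = 3.04e-06). Tns1, tensin 1, which ties integrins to actin, had 330 and 438 against 9143 and 10176 (4.62, SE 0.20, adjusted p = 1.14e-06). A few receptors ran the other way. Itgb6, the epithelial subunit that activates latent transforming growth factor beta, had 859 and 1008 against 271 and 168 (-2.10, SE 0.24, adjusted p = 0.000175). Itgav, its alpha partner, had 15733 and 16007 against 11487 and 11298 (-0.49, SE 0.11, adjusted p = 0.00648).

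Cell junctions separated the layers by type. Of 25 tight junction and polarity genes, 21 were lower in basal libraries, 2 higher and 2 not called (median -2.26), against 20.1% lower among all genes. Ocln, occludin, had 4067 and 4012 against 467 and 356 (-3.30, SE 0.15, adjusted p = 1.85e-06). The claudins Cldn7, with 4443 and 3375 against 463 and 332 (-3.29, SE 0.20, adjusted p = 6.36e-06), and Cldn3, with 4160 and 3586 against 536 and 308 (-3.24, SE 0.26, adjusted p = 3e-05), were lower as well. Cldn4 had 17367 and 19604 against 2317 and 2013 (-3.10, SE 0.13, adjusted p = 1.14e-06). Tjp1, the scaffold protein ZO-1, which also serves other junctions, rose instead, from 7134 and 8906 to 12581 and 12592 (0.64, SE 0.13, adjusted p = 0.00377). Cldn12 was the other higher member (451 and 519 against 806 and 779, 0.69, adjusted p = 0.0105), and it was not called without basal library 2 (adjusted p = 0.0504). The motif AACCNGTT of grainyhead-like factors stood on either strand in 1 of 18 windows of this list (Cgn), or 5.56%, against 2.27% of all tested genes with a window. It stood in 3 of 25 windows of apical genes (12%: Muc1, Prom1 and Rab25) and 0 of 22 of luminal transcription factors.

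Cadherins changed over between the layers. Cdh1, E-cadherin, had 21541 and 21657 against 6323 and 4320 (-2.06, SE 0.16, adjusted p = 2.83e-05), and Cdh3, P-cadherin, had 82 and 56 against 4707 and 4252 (5.87, SE 0.22, adjusted p = 6.73e-07). Gap junction genes did likewise: Gja1, connexin 43, had 965 and 786 against 10946 and 11142 (3.64, SE 0.21, adjusted p = 5.89e-06), and Gjb2, connexin 26, had 901 and 349 against 133 and 32 (-2.94, SE 0.63, adjusted p = 0.00542), with a range of -3.83 to -2.05 when a library was left out. Among desmosome genes Pkp2, a plakophilin of simple epithelium and heart, fell from 1387 and 1345 to 293 and 216 (-2.42, SE 0.20, adjusted p = 3.7e-05), and Pkp1, the plakophilin of stratified epithelium, had 759 and 782 against 3416 and 3086 (2.05). Of the 23 desmosome, cadherin and gap junction genes tested, 14 were higher, 8 lower and 1 not called.

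The apical surface and secretion were luminal. Of 32 genes for the apical membrane and transport, 27 were lower in basal libraries, 1 higher (2 without luminal library 2) and 4 not called (median -2.38). Muc4, a membrane mucin, had 3848 and 4394 against 504 and 228 (-3.58, SE 0.45, adjusted p = 0.000324), and Muc1 had 2685 and 4853 against 390 and 280 (-3.43, SE 0.28, adjusted p = 3.14e-05). Slc12a2, the sodium, potassium and chloride cotransporter of the basolateral membrane of secretory cells, had 82204 and 158832 against 19054 and 27071 (-2.34, SE 0.29, adjusted p = 0.000281). Slc39a8, a zinc and manganese importer, was the higher member, at 79 and 52 against 838 and 795 (3.50, SE 0.29, adjusted p = 3.2e-05).

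Transcripts of Csn1s1, Csn2, Csn3 and Lalba were detected in every CD1 library, while Glycam1, also in the milk list, was at 0 in all 4. Of 22 genes of the list tested, 19 were lower in basal libraries, 1 higher and 2 not called (median -2.55). The alpha casein gene Csn1s1 had 31653 and 32470 against 3535 and 3462 (-3.21, SE 0.51, adjusted p = 0.00111). Csn3, kappa casein, had 32047 and 41253 against 4876 and 4053 (-3.04, SE 0.23, adjusted p = 2.29e-05), and Lalba, alpha-lactalbumin, had 5060 and 8332 against 692 and 603 (-3.33, SE 0.53, adjusted p = 0.00114). Btn1a1, butyrophilin of the milk fat globule membrane, had 5337 and 8580 against 536 and 500 (-3.70, SE 0.44, adjusted p = 0.000222). The basal libraries held between 7.68% and 14.9% of the luminal level of Csn1s1, Csn2, Csn3, Lalba and Btn1a1, of which Csn2, beta casein (22750 and 20234 against 2784 and 3725, -2.75, adjusted p = 0.0171), lost the call without basal library 1 (adjusted p = 0.0904), basal library 2 (0.0567) or luminal library 1 (0.0572). Wap, a late lactation gene, had 8 and 38 against 0 and 12 and was not tested. Xdh, xanthine oxidoreductase, was the higher member (1812 and 3879 against 5283 and 5689, 1.03, adjusted p = 0.0256), and it was not called without basal library 1 (adjusted p = 0.0745), basal library 2 (0.119) or luminal library 1 (0.0873).

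Genes of hormone-sensing luminal cells were lower for 12 of 20, higher for 3 and not called for 5 (median -2.06). Prlr, the prolactin receptor, had 63919 and 89018 against 9985 and 11534 (-2.83, SE 0.17, adjusted p = 6.08e-06), and Pgr and Esr1, the progesterone and estrogen receptors, had differences of -2.06 and -2.60. Areg, amphiregulin, the estrogen-induced ligand of the epidermal growth factor receptor, had 26480 and 14503 against 4057 and 2001 (-2.79, SE 0.33, adjusted p = 0.000224). Wnt4, a progesterone-induced ligand, had 5447 and 4590 against 966 and 759 (-2.55, SE 0.22, adjusted p = 3.75e-05). Tnfsf11, the gene of RANKL, had 295 and 0 against 78 and 0 and was not called (adjusted p = 0.711): both libraries numbered 1 held it and both numbered 2 had none.

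Of 23 genes of luminal progenitors, 15 were lower, 3 higher and 5 not called (median -2.01). Kit, the stem cell factor receptor, had 7510 and 7009 against 930 and 595 (-3.29, SE 0.20, adjusted p = 6.08e-06). Tnfrsf11a, the receptor RANK, was among the higher genes, at 529 and 508 against 1113 and 1222 (1.14, SE 0.15, adjusted p = 0.000398). Of 31 nuclear and peptide hormone receptors, 13 were higher (41.9%, against 24.2% of all genes) and 11 not called. The 7 lower were 22.6%, near the 20.1% of all genes. Pparg, a nuclear receptor of fat cells, had 47 and 86 against 1552 and 1713 (4.50, SE 0.31, adjusted p = 1.43e-05), and it is also in the adipocyte list, which was higher in the same libraries. Most of the basal sum of that list was Cd36 and Fabp4. Avpr1a, a vasopressin receptor of smooth muscle, had 8 and 8 against 202 and 256 (3.88, SE 0.40, adjusted p = 0.000102). Esrrg, an orphan receptor, was on the luminal side, at 720 and 1371 against 101 and 168 (-2.87, SE 0.43, adjusted p = 0.000816).

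Ligands and receptors were compared as 50 pairs, of which 48 had both genes tested. They were picked for known binding and, like the lists, with earlier results of these data known. In 12 the ligand and its receptor were called in opposite directions, in 11 both were higher in basal, in 1 both were lower, and in 24 at least 1 was not called. Among all single genes 24.2% were higher and 20.1% lower. How often other pairs of genes are called in opposite directions was not counted, so these counts describe the listed pairs only. The pairs share genes, and only the transcripts were measured. Among the ErbB family, Nrg1, neuregulin 1, was the basal ligand, with 178 and 175 against 3237 and 3557 (4.19, SE 0.25, adjusted p = 6.02e-06). Its receptors were luminal: Erbb3 had 9166 and 9106 against 1754 and 1194 (-2.67, SE 0.17, adjusted p = 9.79e-06), and Erbb4 had 621 and 612 against 60 and 100 (-2.88, SE 0.29, adjusted p = 9.71e-05). The other arm ran in reverse. Areg, described above, Hbegf (5064 and 4527 against 2340 and 1494, -1.37, SE 0.23, adjusted p = 0.00165) and Btc (756 and 393 against 120 and 36, -2.90, SE 0.50, adjusted p = 0.00173, from -3.65 to -2.15 without either basal library) were luminal ligands. Their receptor Egfr had 1490 and 2079 against 4995 and 6595 (1.69, SE 0.19, adjusted p = 0.000161). Ereg, another ligand of that receptor, differed from them, at 57 and 41 against 385 and 432 (2.87, SE 0.27, adjusted p = 6.8e-05). Nrg4, another neuregulin, was luminal like Erbb3 and Erbb4, at 763 and 1019 against 239 and 304 (-1.69, adjusted p = 0.000544). Neither Ereg nor Nrg4 was in a listed pair.

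The other opposed pairs joined several families. Kitl, stem cell factor, had 10737 and 8339 against 19347 and 19306 (1.02, SE 0.16, adjusted p = 0.000997), opposite to its receptor Kit. Hgf, hepatocyte growth factor, had 11 and 67 against 696 and 1454 (4.74, SE 0.59, adjusted p = 0.000288, 3.75 without luminal library 1 and 5.74 without luminal library 2), and its receptor Met fell from 5968 and 6772 to 2015 and 1310 (-1.98, SE 0.18, adjusted p = 5.26e-05). Hgf is known mainly as a product of stromal cells. The fibroblast sums were 10662 and 54696 in the luminal and 71690 and 93686 in the basal libraries. The part of stromal cells in the Hgf values was not tested. Bmp7 had 79 and 26 against 2148 and 1254 (4.91, SE 0.41, adjusted p = 3.38e-05, from 4.24 to 5.60 without either luminal library), and the receptor Bmpr1b had 685 and 541 against 120 and 64 (-2.70, SE 0.47, adjusted p = 0.0019). Lif, leukemia inhibitory factor, was luminal, with 8737 and 3290 against 1099 and 232 (-3.40, SE 0.63, adjusted p = 0.00259, from -4.47 to -2.32 when a library was left out), and Lifr was basal, with 4078 and 5768 against 13693 and 19119 (1.72, SE 0.21, adjusted p = 0.000296). Ntn1, netrin 1, fell from 2422 and 2520 to 500 and 567 (-2.21, SE 0.13, adjusted p = 6.72e-06), and its receptor Neo1 rose from 2961 and 2579 to 4318 and 4843 (0.71, SE 0.14, adjusted p = 0.00291). Fgf1 with Fgfr2 was the smallest opposed pair (0.79 and -1.04), and Fgf1 was not called without basal library 2 (0.51, adjusted p = 0.116).

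**Figure D4:**
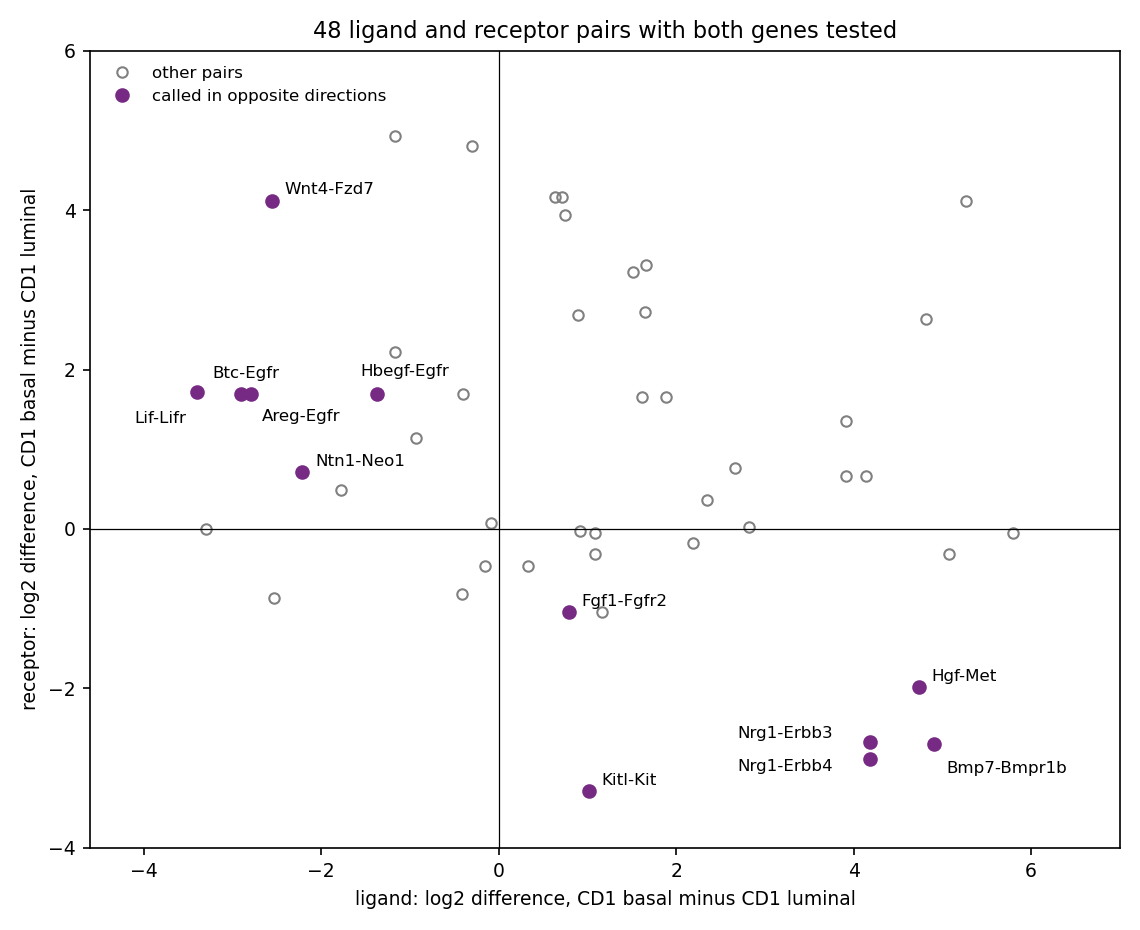
Log2 difference, CD1 basal minus CD1 luminal, of the ligand (horizontal) and of the receptor (vertical) for 48 pairs with both genes tested. The 12 filled points were called in opposite directions and lie in the upper left (luminal ligand, basal receptor) or lower right quadrant (basal ligand, luminal receptor).

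In the Wnt pathway 28 of 43 genes were higher in basal libraries, 4 lower and 11 not called (median 1.53). Among receptors, Fzd7 had 703 and 571 against 9655 and 13155 (4.12, SE 0.22, adjusted p = 3.64e-06), Lgr5, an R-spondin receptor, had 86 and 193 against 5027 and 3550 (4.93, SE 0.36, adjusted p = 1.64e-05), and Lgr4 had 1447 and 1008 against 6121 and 5302 (2.22, SE 0.18, adjusted p = 2.65e-05). Axin2, the common feedback target of the pathway, had 22 and 34 against 440 and 460 (3.68, SE 0.34, adjusted p = 6.25e-05). The ligands did not move together: Wnt6, Wnt9a, Wnt10a and Wnt11 were higher. Wnt4, Wnt5b (635 and 582 against 179 and 196, -1.67, SE 0.21, adjusted p = 0.000302) and Wnt7b (834 and 1334 against 156 and 148, -2.75, SE 0.27, adjusted p = 8.39e-05) were luminal, and Wnt5a was not called (809 and 1293 against 802 and 1170). Among inhibitors Wif1, which binds Wnt proteins outside the cell, had 32 and 12 against 2138 and 1370 (5.92, SE 0.40, adjusted p = 1.13e-05).

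Notch ligands were basal, while the receptors differed less. Dll1 had 43 and 75 against 3114 and 4260 (5.80, SE 0.32, adjusted p = 4.09e-06) and Jag2 had 93 and 82 against 3393 and 3102 (5.08, SE 0.16, adjusted p = 3.94e-07). Notch1 had 4216 and 5720 against 4624 and 4943 (-0.05, SE 0.17, adjusted p = 0.828), and Notch3 5255 and 4805 against 3773 and 4416 (-0.31, not called). Notch4, a receptor of endothelium, was the exception, at 47 and 123 against 1273 and 2017 (4.23, SE 0.42, adjusted p = 8.2e-05, 3.61 without luminal library 1 and 4.87 without luminal library 2), in the libraries with the higher endothelial sum. Notch targets had no common direction. Hey1 had 1075 and 1823 against 532 and 448 (-1.52, SE 0.26, adjusted p = 0.00178). Heyl went the other way, at 89 and 8 against 326 and 476 (3.34, adjusted p = 0.00424), and Hes1 (0.16) and Hey2 (-0.65) were not called. In the list as a whole, 12 of 23 were higher, 3 lower and 8 not called, with 1 lower without basal library 1 or luminal library 2.

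Among other growth factor families the basal side also held more calls, where all genes had 24.2% higher and 20.1% lower. In the fibroblast growth factor list, 10 of 19 genes were higher and 3 lower, and the feedback inhibitor Spry1 had 277 and 245 against 3031 and 3370 (3.56, SE 0.17, adjusted p = 2.12e-06). In the transforming growth factor and bone morphogenetic protein list, 19 of 37 were higher (51.4%). The 7 lower were 18.9%, near the share of all genes. Fst, follistatin, which traps activins, had 47 and 160 against 4931 and 5657 (5.77, SE 0.41, adjusted p = 1.6e-05, from 4.97 to 6.59 without either luminal library). Inhbb, the activin B subunit that it binds, was luminal, at 3248 and 4627 against 559 and 539 (-2.82, SE 0.19, adjusted p = 1.1e-05). In the insulin-like growth factor list, 10 of 16 were higher and 1 lower, which lost its call without either basal library or luminal library 2. Pappa, the protease that frees these factors from their binding proteins, had 40 and 52 against 2047 and 3031 (5.53, SE 0.23, adjusted p = 1.13e-06), and Igf1r, their receptor, had 1710 and 2001 against 5782 and 6088 (1.66, SE 0.15, adjusted p = 4.95e-05). Igfbp5, a binding protein, had 91980 and 141532 against 95918 and 120411 and was not called (adjusted p = 0.807).

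Of 45 semaphorin, plexin, slit, netrin and ephrin genes, 30 were higher, 7 lower (4 without basal library 1 or luminal library 2) and 8 not called (median 1.68). Plxna2 had 110 and 219 against 4226 and 3909 (4.62, SE 0.30, adjusted p = 9.58e-06), while Plxnb2, a plexin of many epithelia, had 8159 and 7383 against 4826 and 3569 (-0.92, SE 0.14, adjusted p = 0.000948). Sema4d, a semaphorin that binds B plexins, had 1756 and 1627 against 495 and 276 (-2.18, SE 0.24, adjusted p = 0.000145). Plxnd1, a semaphorin receptor of endothelium, had 274 and 230 against 5155 and 5350 (4.33, SE 0.20, adjusted p = 1.94e-06), beside the higher endothelial sum. Of 16 chemokines, 6 were higher (37.5%, against 24.2% of all genes), 3 lower (18.8%, near the 20.1% of all genes) and 7 not called. Cxcl14, a chemokine of epithelium, had 132 and 152 against 19187 and 16931 (6.90, SE 0.13, adjusted p = 5.29e-08), and Cxcl2, which attracts neutrophils, had 1983 and 3212 against 788 and 647 (-1.82, SE 0.25, adjusted p = 0.000525).

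**Figure D5:**
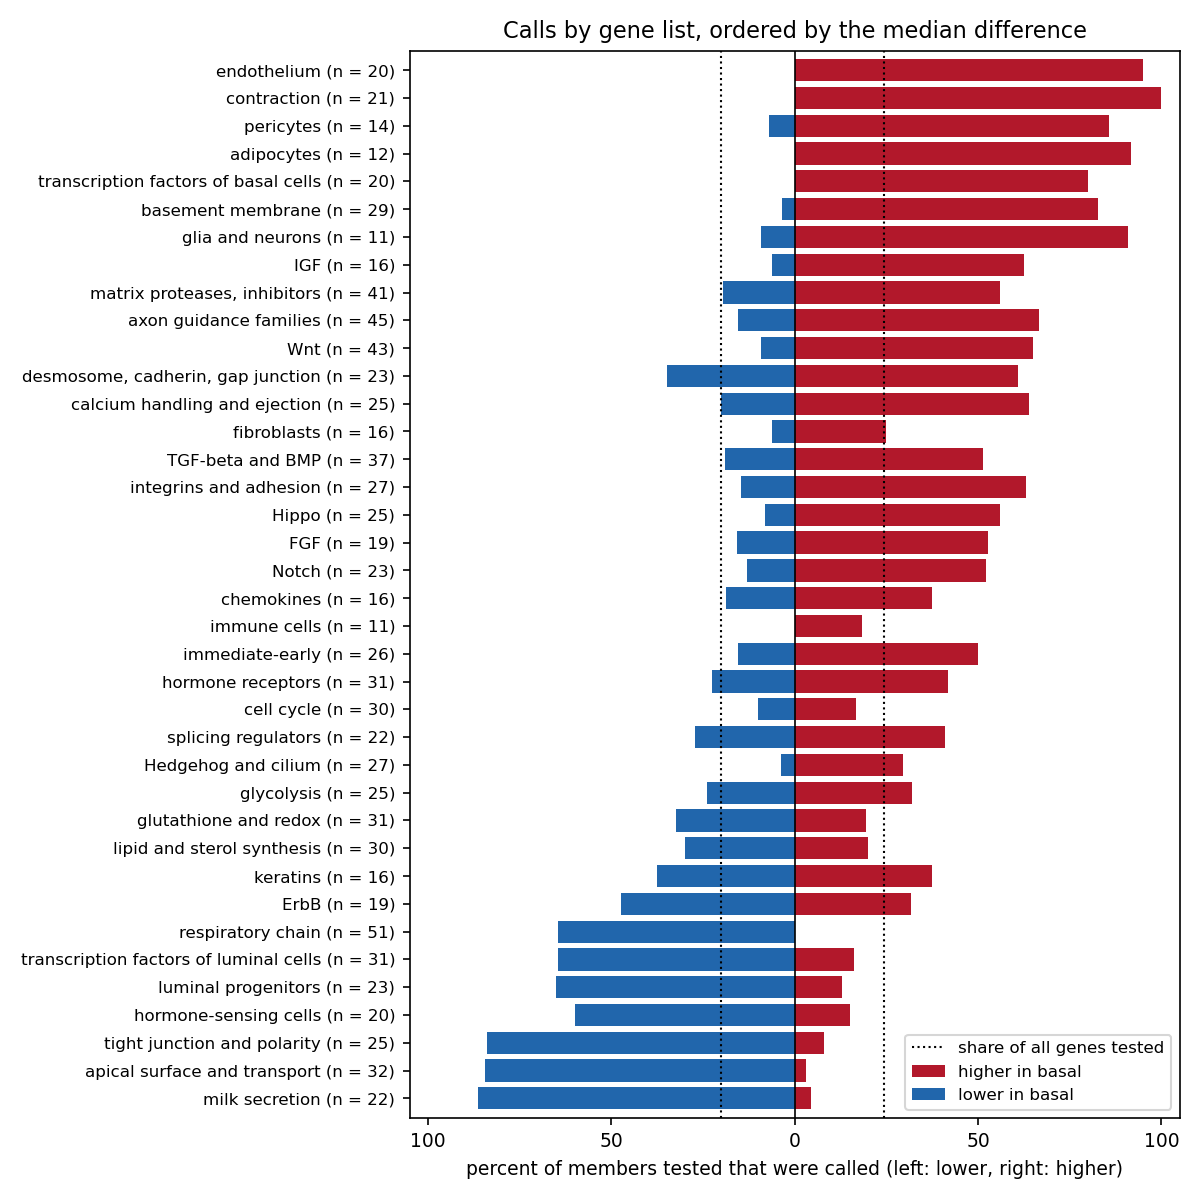
Share of the tested members of 38 gene lists that were called higher (right) or lower (left) in CD1 basal libraries, in percent, ordered by the median difference, with the shares of all genes tested (24.2% and 20.1%) as dotted lines. Contraction and endothelium stand at the top, and milk secretion, apical and tight junction genes at the bottom.

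Matrix proteases and their inhibitors were higher for 23 of 41, lower for 8 and not called for 10 (median 1.71), with 14 higher without basal library 2. The lower share was 19.5%, near the 20.1% of all genes. Adamts18 had 36 and 26 against 4844 and 3086 (6.64, SE 0.27, adjusted p = 1.13e-06), and Adamts1 had 1685 and 1979 against 39467 and 34984 (4.33, SE 0.13, adjusted p = 3.41e-07), both secreted metalloproteases. Timp3, a matrix-bound inhibitor of them, had 667 and 678 against 10214 and 11737 (4.00, SE 0.18, adjusted p = 1.83e-06). Membrane serine proteases of epithelium were luminal together with their inhibitor. St14, matriptase, had 8535 and 8524 against 2216 and 1450 (-2.26, SE 0.18, adjusted p = 2.59e-05), Prss8, prostasin, 954 and 915 against 239 and 152 (-2.26, SE 0.22, adjusted p = 7.91e-05), and Spint1 5110 and 4001 against 1264 and 903 (-2.09, SE 0.18, adjusted p = 3.61e-05).

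In the Hippo pathway 14 of 25 genes were higher, 2 lower and 9 not called. The coactivator Yap1 had 2348 and 2823 against 6016 and 6196 (1.23, SE 0.13, adjusted p = 0.000104), and its DNA-binding partners split: Tead1 had 2419 and 2886 against 8836 and 9825 (1.80, SE 0.13, adjusted p = 1.59e-05) and Tead2 had 1756 and 1753 against 550 and 551 (-1.67, SE 0.14, adjusted p = 3.4e-05). Among target genes, Ctgf had 132 and 63 against 3027 and 6021 (5.41, SE 0.38, adjusted p = 1.52e-05) and Ankrd1 had 18 and 8 against 110 and 144 (2.71, SE 0.44, adjusted p = 0.00126), but Cyr61 had 16016 and 17930 against 14938 and 16891 and was not called (adjusted p = 0.613). Wwc1, the upstream regulator Kibra, was luminal, at 3419 and 4490 against 1081 and 875 (-2.02, SE 0.17, adjusted p = 4.21e-05).

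Of 22 splicing regulators, 9 were higher (40.9% against 24.2% of all genes), 6 lower (27.3% against 20.1%) and 7 not called (median 0.30). Rbpms, a regulator of smooth muscle splicing, had 812 and 1023 against 5865 and 6276 (2.71, SE 0.14, adjusted p = 2.94e-06), and Mbnl1 had 4309 and 4864 against 10086 and 12416 (1.27, SE 0.16, adjusted p = 0.000347). The epithelial regulators Esrp1 (3993 and 3646 against 1855 and 1374, -1.27, SE 0.16, adjusted p = 0.000341) and Esrp2 (1234 and 1264 against 431 and 360, -1.66, SE 0.17, adjusted p = 0.000116) fell. Rbm47, another epithelial RNA-binding protein, fell from 4117 and 4198 to 838 and 643 (-2.50, SE 0.18, adjusted p = 1.83e-05). Isoforms were not measured.

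Nuclear genes of the respiratory chain and ATP synthase were lower in basal libraries for 33 of 51 and higher for none, against 20.1% lower among all genes. The shifts were small, from -1.19 to 0.07 over all 51 (median -0.68), and 50 of the 51 differences were negative. Cox4i1, a core subunit of cytochrome oxidase, had 3766 and 2686 against 1433 and 1370 (-1.19, SE 0.16, adjusted p = 0.000528), and Cox8a had 2085 and 1712 against 884 and 895 (-1.09, SE 0.14, adjusted p = 0.000296). Ndufb9, of complex I, had 1266 and 864 against 550 and 484 (-1.02, SE 0.19, adjusted p = 0.00262). The count of lower genes rested on the libraries: it was 15 without basal library 2, 14 without luminal library 1 and 44 without luminal library 2. The list summed to 91602 in luminal library 1, 64845 in luminal library 2, and 54045 and 47776 in the basal libraries.

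Glycolytic genes had no common direction, with 8 higher, 6 lower (3 without basal library 2 or luminal library 1) and 11 not called of 25 (median -0.06). The glucose transporters divided. Slc2a4, the insulin-regulated transporter of muscle and fat, had 15 and 4 against 765 and 723 (5.50, SE 0.55, adjusted p = 9.19e-05), in the libraries with the higher adipocyte sum. In the basal libraries that sum was mostly Cd36 and Fabp4, which endothelium also expresses, and the part of adipocytes was not tested. Slc2a3 had 11 and 4 against 321 and 176 (4.03, SE 0.45, adjusted p = 0.000168). Slc2a1 was lower in basal, at 4117 and 3772 against 3063 and 2268 (-0.59, adjusted p = 0.0318). On the luminal side Aldoc, an aldolase, had 1337 and 1986 against 161 and 272 (-2.93, SE 0.40, adjusted p = 0.000535), and Pfkfb3, which makes the activator of phosphofructokinase, had 10553 and 11366 against 3645 and 3593 (-1.61, SE 0.12, adjusted p = 2.36e-05). Among 31 glutathione and redox genes 10 were lower and 6 higher, with 5 lower without basal library 1 and 6 without basal library 2 or luminal library 1. In the full fit the redox shares were 32.3% lower and 19.4% higher, where all genes had 20.1% and 24.2%. Gsr, glutathione reductase, fell from 4262 and 3849 to 1241 and 1150 (-1.77, SE 0.21, adjusted p = 0.000257). Slc7a11, the cystine transporter, rose from 71 and 38 to 344 and 380 (2.61, SE 0.31, adjusted p = 0.000245). Among 30 lipid and sterol genes 9 were lower and 6 higher, where all genes had 20.1% lower and 24.2% higher. Without basal library 1 these were 14 and 3. Elovl7, a fatty acid elongase, had 1741 and 1601 against 371 and 240 (-2.47, SE 0.25, adjusted p = 8.62e-05), and Thrsp, a regulator of fat synthesis in adipose tissue, had 18 and 15 against 293 and 344 (3.73, SE 0.36, adjusted p = 7.84e-05), in the libraries with the higher adipocyte sum.

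The cell cycle list had fewer calls than the background, with 5 of 30 higher (16.7% against 24.2% of all genes; 3 without basal library 2), 3 lower (10.0% against 20.1%; 5 without luminal library 2) and 22 not called. Mki67, the proliferation marker, had 224 and 452 against 619 and 923 and was not called (adjusted p = 0.252), but was in a fit of the CD1 libraries alone (1.21, adjusted p = 0.0498). Top2a was not called (178 and 215 against 124 and 192, adjusted p = 0.753). The D cyclins divided between the layers: Ccnd1 had 3518 and 2023 against 847 and 523 (-2.00, SE 0.27, adjusted p = 0.000477), and Ccnd2 had 89 and 156 against 3072 and 3138 (4.61, SE 0.23, adjusted p = 2.87e-06). In the Hedgehog and cilium list 8 of 27 genes were higher (29.6%, near the 24.2% of all genes, and 5 genes without basal library 2), 1 was lower and 18 were not called.

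Immediate-early genes, which respond to cell isolation as well as to signals in tissue, were abundant in all libraries, and 13 of 26 were higher in basal, 4 lower and 9 not called (median 0.53). Egr1 had 33600 and 47414 against 79415 and 88111 (1.05, SE 0.17, adjusted p = 0.00126), and Egr2 had 348 and 523 against 5883 and 7745 (3.94, SE 0.28, adjusted p = 1.44e-05). Socs3, induced by cytokines, had 5929 and 7847 against 22259 and 27614 (1.85, SE 0.16, adjusted p = 4.71e-05). Klf6 went the other way, at 51158 and 46465 against 17333 and 15718 (-1.58, SE 0.14, adjusted p = 4.04e-05), and Jun was not called, at 48070 and 44584 against 41569 and 48525.

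Several classes of short noncoding RNA genes had more lower than higher calls. Of 96 small nucleolar RNA genes tested, 55 (57.3%) were lower in basal libraries and 5 higher, and of 60 small nuclear RNA genes 27 (45.0%) were lower and 8 higher. Of 37 genes of other small RNA, annotated as misc_RNA, 22 (59.5%) were lower and 2 higher. MicroRNA genes did not show this, with 8 of 44 (18.2%) lower and 4 higher, against 20.1% lower among all genes. Protein-coding genes had 21.2% lower and 24.9% higher, and long intergenic noncoding RNA genes 12.2% lower and 30.5% higher. Many small RNA genes lie inside introns of other genes, and the luminal libraries were made from 40000 cells and the basal from 5000. The part of cell number in these shares was not tested.

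The gate difference of CD1 mice was set against that of the K8rtTA/TetOCre/Rosa26-DNp63-IRES-GFP mice in the same model. Of 16900 genes, 58 (0.343%) had gate differences that differed between the mice, and 40 of these were among the genes called in CD1. In 15 of the 40 the gate difference of the other mice had the opposite sign. The count was 4 to 7 without either CD1 basal library or any 1 library of the other mice, 163 without CD1 luminal library 1 and 95 without CD1 luminal library 2. Krt18, a simple epithelial keratin, had 38642 and 40332 in luminal and 2104 and 2423 in basal libraries of the other mice, a difference of -4.09 against -2.70 in CD1 (adjusted p = 0.0299). Strain, induction and the GFP gate differ between the mice and cannot be told apart.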

How the data were processed

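RNA was extracted from sorted cells with the Absolutely RNA nanoprep kit, made into libraries with Ovation Solo and sequenced on an Illumina NovaSeq, per the labels' protocols. The submitters' processing notes name STAR, HTSeq and the builds GRCm38 and mm10. The sources used here give no versions, annotation release or strand setting, so reads of overlapping or antisense genes cannot be separated. The deposited values are whole numbers that sum to about 20000000 in each library and were treated as a score, as the authors had scaled and rounded them: 99.8% to 99.9% of values fell on whole multiples of 1 read, rounded up. Since the values are scaled and rounded, the main test was not a count test, and the recovered whole reads entered an alternative. Of 49671 gene IDs, 49326 had a GENCODE M21 entry.

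Genes reaching 40 in 2 or more libraries were kept. Values were scaled by trimmed means of ratios (trims of 30% and 5%), and log2(value + 8) was fitted in limma 3.58.1 (R 4.3.3) with 4 group means over all 8 libraries, an intensity trend and two-sided tests. The fit had 4 residual and a median of 4.69 prior degrees of freedom. Fold changes on this scale understate changes of low genes. P-values were adjusted by Benjamini-Hochberg over all 16900 genes tested. The scripted steps were tested on simulated data. Alternatives were other scalings, pseudocounts of 2 and 32, other filters, limma voom on recovered reads, a replicate block, the CD1 libraries alone and each library left out. Promoter windows were RefSeq's.

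The members and lists were chosen with earlier results of these data known. Glycam1, Hes1, Hey2, Heyl, Nrg4 and Slc2a1 were added after their values were seen. The text names the lineage markers and sort genes, up to 3 called genes with the largest differences in each direction per list, both genes of each opposed ligand and receptor pair, and the 10 highest and 10 lowest differences, except a few genes that are not reported here. These genes were chosen after their values were seen: Adamts1, Adipoq, Ankrd1, Axin2, Calca, Cdh1, Cdh5, Cgn, Cited1, Cldn4, Col17a1, Col1a1, Csn1s1, Csn2, Csn3, Cyr61, Egr1, Esr1, Esrp1, Foxc1, Gata3, Gja1, Gpx3, Hspg2, Igf1r, Igfbp5, Itga6, Itgb4, Jun, Krt23, Krt6a, Lalba, Lama5, Lgr4, Mbnl1, Mki67, Muc1, Myl9, Mylk, Ndufb9, Nfib, Notch1, Notch3, Pard3, Pgr, Pkp1, Prom1, Pth1r, Pthlh, Rab25, Rspo1, Slc12a2, Socs3, Sox9, Srf, Synm, Tagln, Tead1, Timp3, Tnfsf11, Tns1, Top2a, Vcl, Vwf, Wap, Wnt11, Wnt5a, Wnt6, Wnt9a and Yap1.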

Additional observations from a re-analysis of the deposited data

Results flagged for a closer look

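The gate difference of 9 named genes differed between CD1 and the K8rtTA/TetOCre/Rosa26-DNp63-IRES-GFP mice in limma's test of the difference, CD1 minus the other mice, with Benjamini-Hochberg adjusted p. In 5 genes of the luminal side the basal libraries of the other mice held less of the transcript than those of CD1. Krt18 differed by 1.40 (adjusted p = 0.0299), Krt19 by 1.55 (adjusted p = 0.0128, gate differences of -2.89 and -4.44) and Krt7 by 1.87 (adjusted p = 0.0305, -2.61 and -4.48). Prlr differed by 1.73 (adjusted p = 0.032, -2.83 and -4.56), and Cldn4 by 1.78 (adjusted p = 0.0128, -3.10 and -4.89). In CD1 basal libraries Cldn4 had 2317 and 2013, against 784 and 769 in the other basal libraries.

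Trp63 differed by 4.08 (adjusted p = 0.000592). It had 1297 and 1460 in luminal and 8088 and 8306 in basal libraries of the other mice, which carry a DNp63 transgene whose reads can be counted to this gene. Cdh3 differed by 2.16 (adjusted p = 0.0337), with 408 and 294 against 4219 and 4907 in the other mice. Pkp1 differed by 1.23 (adjusted p = 0.0379), with 2601 and 2540 against 4944 and 4013 in the other mice. Itgb3, an integrin of progenitors, differed by -2.54 (adjusted p = 0.0243). It had 1344 and 1271 against 765 and 831 in CD1, and 342 and 310 against 898 and 1460 in the other mice. Its CD1 call (-0.72, adjusted p = 0.0271) was lost without any 1 of the 4 CD1 libraries (adjusted p from 0.0608 to 0.126).

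With each of the 8 libraries left out in turn, Trp63 was called in all 8 fits, Itgb3 and Cldn4 in 3, and Krt18, Krt19, Krt7, Cdh3, Pkp1 and Prlr in 2. Under other settings, Pkp1 was not called with median-of-ratios scaling (adjusted p = 0.0517), without a filter (0.112) or with limma voom (0.0849), nor Cdh3 without a filter (0.112) or with voom (0.0796). Without a filter, Krt18 (adjusted p = 0.0905), Krt7 (0.0933), Itgb3 (0.0905) and Prlr (0.1) were not called either. The signs were kept with each library left out, for example from 1.27 to 1.53 for Krt18 and from -2.89 to -2.19 for Itgb3.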

How the results depend on the processing

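The count of 7494 called genes lay between 5344 and 6963 with 1 CD1 library left out, at 6050 in the CD1 libraries alone, and between 5625 and 7591 under other scalings, pseudocounts, filters and limma voom. Genes higher in basal fell from 4098 to 2684 with a filter at a value of 200 in 2 libraries, which tests fewer genes. Of 260 called genes followed through the alternatives, which include some not named in the text, 235 kept the call in every alternative, 25 lost it without 1 CD1 library, 13 under another setting, and none reversed (0). The count of 58 genes whose gate difference depended on the mouse was 116 with a pseudocount of 32, 10 without a filter, 22 with limma voom, and between 4 and 163 with 1 library left out. The cause was not tested. No label states that replicate numbers pair the libraries, and 2 pairs cannot settle it. Deviations of same-numbered CD1 libraries correlated at 0.341. Of genes at least 4-fold apart in both gates, 16 were higher in library 1 of both, 17 in library 2 of both and 0 went in opposite directions. With the replicate block 7714 genes were called, 7355 of them shared with the 7494, and 128 genes depended on the mouse. Gpx3 (-2.03, adjusted p = 0.0343) and Mki67 (1.21, adjusted p = 0.0262) were called with the block. With 4368739 to 5640602 recovered reads and 2 libraries a gate, genes near a value of 40 rest on about 10 reads.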

Other observations

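The libraries of a gate differed from each other in a few genes, and some of these differences recurred in both gates. Of 13739 genes that reached 100 in some CD1 library, 16 were at least 4-fold higher in library 1 of both gates (on value + 8), 17 were at least 4-fold higher in library 2 of both, and 0 went in opposite directions. Calca, the gene of calcitonin, had 2302 and 15 in the luminal and 445 and 4 in the basal libraries. It was not called between gates (adjusted p = 0.556), but was without luminal library 2 (-4.98, adjusted p = 0.0497). Tnfsf11 followed it, with 295 and 0 against 78 and 0. Fcgbp, a secreted mucin-like protein, had 35043 and 8302 against 2962 and 599 (-3.68, SE 0.77, adjusted p = 0.00477), from -4.80 to -2.56 when a library was left out. In luminal libraries alone, 172 genes were 4-fold higher in library 2 and 51 in library 1.

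Rspo1, an R-spondin that binds Lgr receptors, had 479 and 23 against 87 and 24 and was called without luminal library 2 only (-3.15, adjusted p = 0.00719). Gpx3, a secreted glutathione peroxidase, had 32416 and 5187 against 6304 and 1617 (-2.03, SE 0.81, adjusted p = 0.0694). It was called without basal library 1 (-2.99, adjusted p = 0.0359) or luminal library 2 (-3.34, adjusted p = 0.00326).

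Parathyroid hormone-related protein and its receptor were both higher in basal libraries. Pthlh had 15 and 4 against 390 and 152 (3.92, SE 0.53, adjusted p = 0.000485, from 3.29 to 4.56 without either basal library). Pth1r had 36 and 52 against 106 and 144 (1.35, SE 0.33, adjusted p = 0.01), and was not called without basal library 2 (1.12, adjusted p = 0.075). Tenm2, a teneurin adhesion protein of neurons, had 54 and 60 against 6648 and 7785 (6.78, SE 0.22, adjusted p = 3.94e-07). Ablim3, an actin-binding LIM protein, had 8 and 15 against 2143 and 1981 (6.75, SE 0.31, adjusted p = 1.81e-06). Both were among the 10 highest differences and belong to no list used here.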
